A study of Homo sapiens with 12 samples.

Results

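The genes described here are the nuclear-encoded subunits of the 5 oxidative phosphorylation complexes, as 231BR cells expressed them with or without estradiol and with or without astrocytes. A gene was taken where a probe set with exactly 1 gene symbol carried a symbol of complex I (NDUFA, NDUFB, NDUFC, NDUFS or NDUFV with a number), complex II (SDHA to SDHD), complex III (UQCR), complex IV (COX4I, COX5, COX6, COX7 or COX8) or complex V (ATP5F1, ATP5M or ATP5P). Of 17958 genes on the arrays 79 met this rule, through 87 probe sets. There were 34 genes of complex I, 3 of complex II, 8 of complex III, 17 of complex IV and 17 of complex V. The symbol rule itself used no expression value, but the genes were chosen with earlier results of these data known. Where a gene had several probe sets, the one brightest on average was taken. Of the 79, 77 are protein coding. NDUFV1-DT is a divergent noncoding transcript and UQCRBP1 a pseudogene, and both were kept because their symbols match.

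231BR is a brain-seeking derivative of MDA-MB-231, a human breast cancer line, and here carried EGFP. Cells received vehicle or 10 nM estradiol, and were cultured alone or together with mouse astrocytes. EGFP-positive cells were sorted after 24 h of co-culture and their total RNA was put on single-colour Affymetrix arrays. There were 3 arrays for each of 4 groups: vehicle alone, estradiol alone, and either one with astrocytes. All groups are the same human line, which is 1 model, and no label says that its replicates came from separate cultures, so p-values measure a spread between arrays that may be technical. By its title, the series asks whether estrogen reaches these cells through astrocytes that have its receptor. The number of arrays, 3 in a group, limits the precision.

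Oxidative phosphorylation makes most of the ATP of a resting cell. Complexes I and II pass electrons from NADH and succinate to ubiquinone, complex III passes them to cytochrome c and complex IV to oxygen. Protons pumped on the way drive ATP synthase, complex V. Most subunits are encoded in the nucleus, and a small core is encoded by mitochondrial DNA. Several promoters of the nuclear genes are known to carry sites for the factors NRF1, GABP (an ETS factor), YY1 and SP1.

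The sequences of 3 members are shown because NDUFS7 and NDUFB7 rose with astrocytes under estradiol while NDUFS1 had the lowest change of complex I there. NDUFS7 is a core subunit of complex I with the iron-sulfur cluster nearest ubiquinone, NDUFB7 an accessory subunit of the membrane arm, and NDUFS1 the largest core subunit, which holds further iron-sulfur clusters. The 250 bases before each transcription start, 5′ to 3′ on the gene's strand, are from RefSeq (GRCh38.p14), at chr19:1383657-1383906 on the plus strand for NDUFS7, chr19:14572067-14572316 on the minus strand for NDUFB7 and chr2:206159445-206159694 on the minus strand for NDUFS1. Capitals mark matches to the NRF1 motif (a palindromic motif searched with 1 free base), ETS (CCGGAAG), YY1 (AANATGGCG) or SP1 (GGGCGGG), searched on both strands. No motif contains the letters of another.
NDUFS7: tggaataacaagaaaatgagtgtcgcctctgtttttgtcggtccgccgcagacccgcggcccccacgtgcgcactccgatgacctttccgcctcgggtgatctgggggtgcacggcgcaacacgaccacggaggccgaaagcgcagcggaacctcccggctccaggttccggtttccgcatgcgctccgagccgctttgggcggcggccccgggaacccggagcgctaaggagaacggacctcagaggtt
NDUFB7: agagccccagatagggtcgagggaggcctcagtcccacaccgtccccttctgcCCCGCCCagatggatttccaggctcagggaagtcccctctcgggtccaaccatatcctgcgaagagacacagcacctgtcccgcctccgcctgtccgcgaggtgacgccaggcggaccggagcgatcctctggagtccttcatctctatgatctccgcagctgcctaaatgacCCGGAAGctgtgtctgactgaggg
NDUFS1: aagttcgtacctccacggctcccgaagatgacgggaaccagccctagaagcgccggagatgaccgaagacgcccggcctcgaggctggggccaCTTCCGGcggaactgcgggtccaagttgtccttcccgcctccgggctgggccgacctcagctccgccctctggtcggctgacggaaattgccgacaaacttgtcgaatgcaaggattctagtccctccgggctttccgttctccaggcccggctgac
The NDUFS7 stretch held none of these letters, the NDUFB7 stretch 1 SP1 and 1 ETS match, and the NDUFS1 stretch 1 ETS match. RefSeq gave 2 entries for NDUFS1. Only the first is shown, and through the other NDUFS1 counts below as holding the SP1 letters.

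RefSeq gave at least 1 promoter window, 250 bases before to 50 after the start, for 65 of the 79 members and for 27305 genes in all. A gene with several windows was counted where any of them held the letters. The YY1 letters were in 15 members (23.1%) and in 3.8% of all these genes. The NRF1 letters were in 15 (23.1%, against 7.0%), the ETS letters in 18 (27.7%, against 12.2%) and the SP1 letters in 22 (33.8%, against 36.7%). In the 150 bases before the start alone, YY1 matches were left in 1 member (1.5%, against 1.1%) and NRF1 in 13 (20.0%, against 5.3%). ETS matches were left in 14 (21.5%, against 8.3%) and SP1 in 19 (29.2%, against 30.4%). The first YY1 match began after the start in 13 of 15 members (86.7%), against 52.7% of the 1050 genes with one. The YY1 match of the 6 NDUFS genes that have one is shown with 6 bases on each side, to set the sites beside the changes. The match is in reverse orientation in NDUFS1 and lies before the start in NDUFS8, and in the other 4 it is forward and after the start. They lie on the plus strand at chr11:47579083-47579103 (NDUFS3), chr5:53560654-53560674 (NDUFS4), chr5:1801409-1801429 (NDUFS6), chr19:1383918-1383938 (NDUFS7) and chr11:68030495-68030515 (NDUFS8), and on the minus strand at chr2:206159415-206159435 (NDUFS1).
NDUFS1: cgaggcCGCCATATTgaataa
NDUFS3: ctgagtAACATGGCGgcggcg
NDUFS4: tgcagcAAGATGGCGgcggtg
NDUFS6: cggcgcAAAATGGCGgcggcg
NDUFS7: gaggccAAGATGGCGgtgctg
NDUFS8: caaaccAACATGGCGgccccc
With astrocytes under vehicle the log2 changes of these 6 genes ran from -1.45 (NDUFS1) to 1.09 (NDUFS7), and none passed. Members with and without the YY1 letters had median log2 changes of 0.15 and 0.02 under vehicle and 0.08 and -0.22 under estradiol. A match is a description of letters, and binding was not measured.

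Across the series, 2 arrays had a narrower range of signal than the others. The SD of all log2 values on an array was 2.04 to 2.22 in vehicle alone and 2.12 to 2.20 in estradiol alone. It was 1.82 to 2.04 in vehicle with astrocytes, lowest in replicate 2, and 2.10, 1.62 and 1.96 in replicates 1, 2 and 3 of estradiol with astrocytes. Over all genes, those above the median signal had a median log2 change with astrocytes of -0.37 under vehicle and -0.58 under estradiol, and those at or below it 0.33 and 0.46. Of the 79 members 66 lay above the median signal. The part of the signal range in the results below was not tested beyond the values given with it. Markers of 231BR cells were bright, with a mean log2 signal over 10 genes of 9.39 to 9.71 in vehicle alone, 9.47 to 9.71 in estradiol alone, at most 9.48 in vehicle with astrocytes and 8.11 to 9.59 in estradiol with astrocytes.

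The members' typical signal overlapped across the 4 groups. The median log2 signal of the 79 genes was 7.39, 7.27 and 6.95 in vehicle alone (replicates 1 to 3), 7.33, 7.30 and 7.47 in estradiol alone, 7.39, 6.90 and 7.57 in vehicle with astrocytes, and 7.80, 6.33 and 7.62 in estradiol with astrocytes. The highest and the lowest value both came from estradiol with astrocytes, so no group stood apart. The median of all genes was at most 5.17 on any array.

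**Figure D1:**
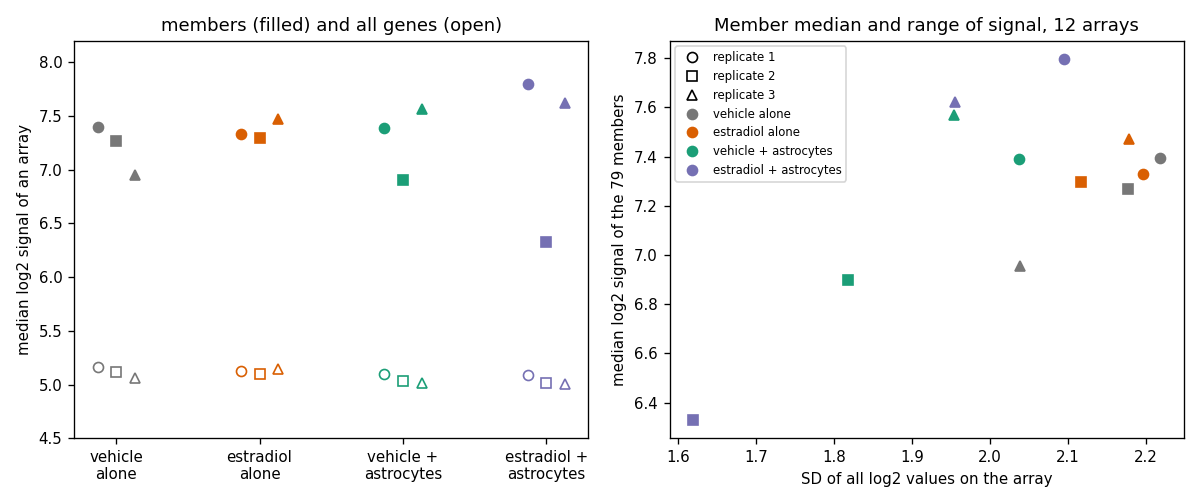
Left, the median log2 signal of the 79 members (filled) and of all 17958 genes (open) on each of the 12 arrays, by group. Right, the member median against the SD of all log2 values on the array; replicate 2 of estradiol with astrocytes has the narrowest range (SD 1.62) and the lowest member median (6.33).

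Estradiol alone changed no member past the threshold, a limma p adjusted over all genes by Benjamini and Hochberg of 0.05. No gene of the array passed either (0% called), and 1 of all genes (0.00557%) and no member had an unadjusted p under 0.05. The members' log2 changes were small, from -0.09 (COX6A2) to 0.26 (NDUFV3), with a median of 0.08 (all genes 0.01). A positive change was seen in 64 of 79 members (81.0%), in 55.5% of all genes, and in 68.5% of the genes above the median signal. Without replicate 3 of vehicle alone the members' median was 0.01. NDUFV3, an accessory subunit of complex I, had log2 signals of 7.08, 6.95 and 6.85 with vehicle and 7.33, 7.14 and 7.21 with estradiol, which do not overlap. COX8A and NDUFA13 were the other members whose estradiol arrays all lay above the vehicle arrays, as 1.94% of all genes did, and no member's lay wholly below (1.27% of all genes). UQCR10, a small subunit of complex III, had 7.51, 7.38 and 6.92 with vehicle and 7.56, 7.49 and 7.48 with estradiol. Those of UQCR10 overlap, and its log2 change was 0.24 ± 0.23 (SE; limma adjusted p = 1.0). The fixed members SDHA and ATP5PO differed less. SDHA, the flavoprotein of complex II, gave 8.70, 8.72 and 8.91 against 8.80, 8.74 and 8.68, and ATP5PO, the stalk protein of ATP synthase, 7.73, 7.69 and 7.67 against 7.78, 7.72 and 7.75.

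With astrocytes present, estradiol again changed no member, and no gene of the array passed (0% called; 142 genes, 0.791%, and no member at an unadjusted p under 0.05 by limma). The members' median log2 change was -0.05 (all genes 0.00), with 34 of 79 positive (50.5% of all genes), and ran from -0.51 (ATP5F1C, the gamma subunit of ATP synthase) to 0.51 (COX7B, a small subunit of complex IV). Single arrays turned the sign: the median was 0.31 without replicate 2 of estradiol with astrocytes and 0.12 without replicate 3 of vehicle with astrocytes. NDUFB9, an accessory subunit of complex I, had the smallest p, with 7.59, 7.60 and 8.15 under vehicle and 8.49, 7.75 and 8.43 under estradiol, a log2 change of 0.44 ± 0.28 (SE; limma adjusted p = 1.0). SDHA had 8.64, 8.68 and 9.03 against 8.72, 7.46 and 8.84. In both genes the groups overlap. ATP5MC1, a gene for the ring subunit of ATP synthase, and UQCRBP1 were the members whose estradiol arrays all lay higher, as 1.36% of all genes did, and in no member did they all lie lower (0.819% of all genes). The interaction, the difference between the 2 estradiol effects, was called for no member and no gene (0%; 31 genes, 0.173%, and no member at an unadjusted p under 0.05). It was positive in 25 of 79 members, 48.7% of all genes and 27.2% of the brighter genes. Its median over the members was -0.12 (all genes -0.01, brighter genes -0.17), and 0.21 without replicate 2 of estradiol with astrocytes and 0.02 without replicate 3 of vehicle with astrocytes. The largest was -0.57 for ATP5F1E, the epsilon subunit of ATP synthase. Of the pathway around the subunits, no gene of 7 lists of assembly factors, carriers, regulators, the tricarboxylic acid cycle and import passed in either estradiol comparison.

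Astrocytes under vehicle changed no member past the threshold. None passed, and 10 of all genes did (0.0557% called, 0.0167% higher and 0.0390% lower); at an unadjusted p under 0.05 there were 10 members and 28.2% of all genes. The members' median log2 change was 0.01, with 42 of 79 positive (53.1% of all genes). Among the 66 brighter members the median was also 0.01, where that of brighter genes was -0.37. The 3 vehicle arrays with astrocytes lay wholly above the 3 without in 15 members (23.4% of all genes) and wholly below in 2, NDUFS1 and UQCRC2 (18.4% of all genes). The medians by complex were 0.14 for I, -0.26 for II, -0.03 for III, 0.09 for IV and -0.14 for V.

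NDUFS7 had the largest positive value under vehicle. It had log2 signals of 6.58, 6.38 and 6.62 alone and 7.39, 7.65 and 7.81 with astrocytes, with no overlap. The log2 change was 1.09 ± 0.19 (SE), 2.13-fold, with a limma adjusted p of 0.0689. It passed when every probe set was tested on its own (limma adjusted p = 0.0489), and over the 12 fits with 1 array left out the adjusted p ran from 0.0109 to 0.351. NDUFA13, an accessory subunit of complex I also known as GRIM-19, had 5.87, 5.93 and 6.08 alone and 6.67, 7.27 and 7.21 with astrocytes. NDUFB8, an accessory subunit of the membrane arm, had 7.54, 7.36 and 7.17 alone and 8.13, 8.12 and 8.08 with astrocytes. Neither overlaps, and the limma adjusted p was 0.0771 for NDUFA13 and 0.0932 for NDUFB8. With the replicate number as a block 6 members passed under vehicle, 5 higher and, lower, NDUFS1 (limma adjusted p = 0.0491), where 14.4% of all genes did. NDUFS1 had a negative change, with 7.59, 7.45 and 7.35 alone and 6.81, 5.49 and 5.75 with astrocytes, a log2 change of -1.45 ± 0.53 (SE; limma adjusted p = 0.127). COX6C, a small subunit of complex IV chosen here after its values were seen, had the lowest change, -1.52 ± 0.70 (SE; limma adjusted p = 0.180), from 8.30, 8.01 and 6.74 to 6.25, 5.47 and 6.77. Its groups overlap through replicate 3 of both. Left-out arrays moved the count: without replicate 2 of estradiol with astrocytes 14 members passed under vehicle, among them NDUFS7, NDUFA13, NDUFB7, NDUFB8 and, lower, NDUFS1 and COX6C. Without replicate 1 of vehicle with astrocytes 4 passed, without replicate 1 of estradiol with astrocytes 2, and without any other single array none. The share of all genes called in the same fits is not set beside these counts, so they are not a result about the members.

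**Figure D2:**
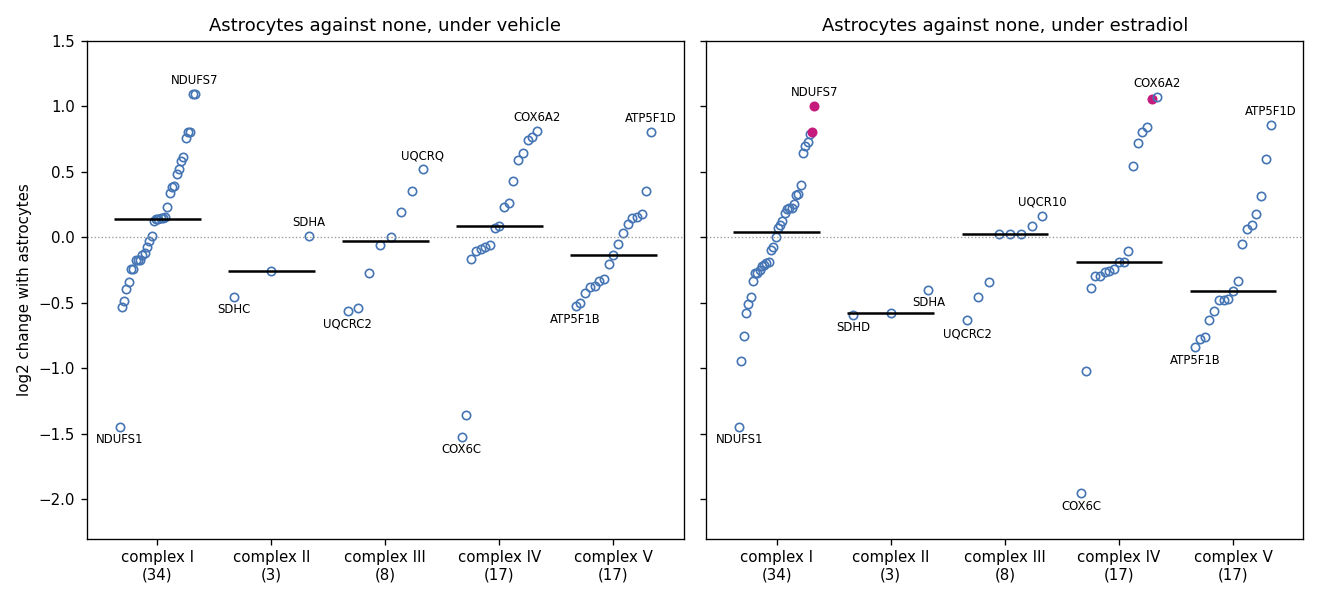
The log2 change with astrocytes of each of the 79 members, under vehicle (left) and estradiol (right), sorted within its complex; the number of members is in brackets and the bar is the median. Filled points passed the limma threshold: NDUFS7, NDUFB7 and COX6B2 under estradiol, and none under vehicle.

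Astrocytes under estradiol raised 3 subunits, NDUFS7 and NDUFB7 of complex I and COX6B2 of complex IV, and lowered none. Of all genes 13.2% were called, 5.03% higher and 8.15% lower, so the 3 rises among 79 members are near the background of rises. Among the genes above the median signal, 309 rose and 1231 fell of 8979, and of the 66 members there 2 rose and 0 fell. The members' median log2 change was -0.19 (all genes 0.07, brighter genes -0.58), with 35 of 79 positive (52.4% of all genes). Groups did not overlap in 13 members higher (27.0% of all genes) and 2 lower (23.9%), NDUFS1 and COX6C, and 15 members had an unadjusted p under 0.05 by limma (43.9% of all genes). The sign of that median was not stable: without replicate 2 of estradiol with astrocytes it was 0.28, with 65 of 79 positive, and with all 12 arrays it was 0.24 after quantile normalization, 0.18 with array weights and 0.55 with the array SD as a covariate. Of the 3 calls, NDUFB7 and COX6B2 were lost with the array SD as a covariate (limma adjusted p = 0.0765 and 0.250), COX6B2 after quantile normalization (0.0766), and NDUFB7 with eBayes set to trend and robust. NDUFS7 passed in these 3 fits. With the replicate number as a block 11 members passed, 9 higher and 2 lower (37.3% of all genes). The 2 lower were NDUFS1 and COX6C (limma adjusted p = 0.0289 and 0.0288).

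NDUFS7 had 6.38, 6.66 and 6.43 in estradiol alone and 7.56, 7.29 and 7.63 with astrocytes. All 3 co-culture arrays lay above all 3 others. It rose 2.01-fold, a log2 change of 1.00 ± 0.19 (SE; limma adjusted p = 0.0328). NDUFB7 had 7.60, 7.66 and 7.52 alone and 8.44, 8.07 and 8.68 with astrocytes, again apart. Its log2 change was 0.80 ± 0.23 (SE), 1.74-fold, with a limma adjusted p of 0.0445. COX6B2, a form of a complex IV subunit known from testis, had 2.53, 2.66 and 2.60 alone and 3.05, 4.42 and 3.48 with astrocytes, a log2 change of 1.05 ± 0.30 (SE; limma adjusted p = 0.0454). It is a dim probe set, at percentile 9 of all genes by mean signal, and the dimmest 1796 genes had a median change of 0.43. Its groups do not overlap either, but replicate 2 stands well above the other co-culture arrays, and without it the change was 0.67 (limma adjusted p = 0.0767). The members past the threshold changed with the array left out, while the log2 changes of these 3 genes stayed positive. They ran from 0.937 to 1.102 for NDUFS7, 0.657 to 0.965 for NDUFB7 and 0.668 to 1.353 for COX6B2. No member passed without any 1 of the estradiol alone arrays, without replicate 1 or 2 of vehicle alone, or without replicate 3 of estradiol with astrocytes. NDUFS7 alone passed without replicate 3 of vehicle alone or replicate 2 or 3 of vehicle with astrocytes. Without replicate 2 of estradiol with astrocytes NDUFA13 passed with NDUFS7 and NDUFB7. Without replicate 1 of estradiol with astrocytes there were 16, of which 9 rose and 7 fell (ATP5F1A, ATP5F1B, COX6C, NDUFA8, NDUFC2, NDUFS1 and SDHD). Without replicate 1 of vehicle with astrocytes NDUFS7, NDUFB7 and COX6B2 passed. The share of all genes called in these fits is not set beside the counts, so they are not a result about the members. Over these 12 fits the limma adjusted p ran from 0.00788 to 0.154 for NDUFS7, 0.0293 to 0.160 for NDUFB7 and 0.00657 to 0.160 for COX6B2. Fitted on the 6 arrays of both estradiol groups alone, no member and no gene passed.

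ATP5MC3 and ATP5F1D lay just outside the threshold. ATP5MC3, 1 of the genes for the ring subunit of ATP synthase, had 4.33, 4.47 and 4.43 alone and 4.90, 5.09 and 5.03 with astrocytes under estradiol (limma adjusted p = 0.0527). ATP5F1D, the delta subunit in the central stalk, had 7.17, 7.09 and 7.26 alone and 8.22, 7.53 and 8.35 with astrocytes (limma adjusted p = 0.0644). Neither overlaps. The log2 changes were 0.60 ± 0.19 and 0.86 ± 0.30 (SE). NDUFS1 had 7.60, 7.57 and 7.56 alone and 7.25, 4.66 and 6.49 with astrocytes, and COX6C 8.27, 7.30 and 8.11 against 7.26, 4.09 and 6.48. Both sets lie wholly below, and replicate 2 is the lowest of each. The log2 changes were -1.45 ± 0.53 for NDUFS1 and -1.95 ± 0.70 for COX6C (SE; limma adjusted p = 0.0720 and 0.0694), and without that replicate -0.71 and -1.02.

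**Figure D3:**
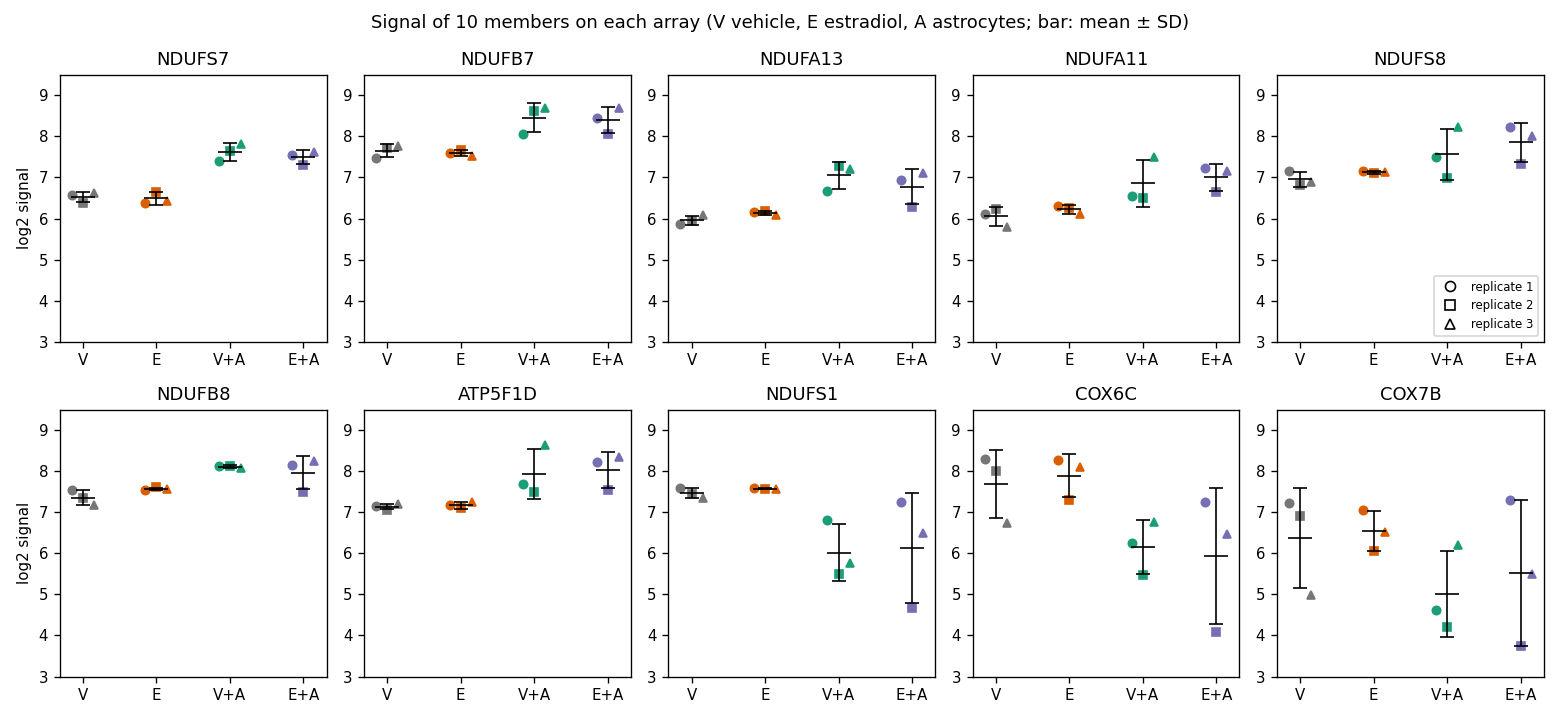
The log2 signal of 10 members on each array, by group (V vehicle, E estradiol, A astrocytes), with the mean and SD of 3 arrays; NDUFA11, NDUFS8, COX6C and COX7B were chosen after their values were seen. NDUFS7 lies at 6.38 to 6.66 without astrocytes and 7.29 to 7.81 with them, and NDUFS1, COX6C and COX7B spread most in estradiol with astrocytes.

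Other subunits of complex I lay between these. NDUFV1, which binds NADH, had 7.70, 7.82 and 8.03 in vehicle alone and 8.31, 7.84 and 8.58 with astrocytes, and 7.90, 7.95 and 7.75 in estradiol alone and 8.45, 6.37 and 8.55 with astrocytes. Replicate 2 is the low co-culture array in both, and the log2 changes were 0.39 ± 0.47 and -0.08 ± 0.47 (SE). NDUFA9, a subunit at the joint of both arms, had log2 changes of 0.14 and -0.09 ± 0.30. NDUFA11, an accessory subunit, and NDUFS8, a core iron-sulfur subunit, were chosen after their values were seen. NDUFA11 had 6.31, 6.25 and 6.10 in estradiol alone and 7.24, 6.64 and 7.15 with astrocytes, with no overlap, and a log2 change of 0.79 ± 0.28 (0.80 under vehicle). NDUFS8 had 7.17, 7.10 and 7.13 in estradiol alone and 8.23, 7.33 and 8.01 with astrocytes, again apart, and a change of 0.73 ± 0.31 (0.61 under vehicle, where the arrays overlap). Neither passed (limma adjusted p = 0.0680 and 0.0989 under estradiol). The 10 complex I members whose vehicle arrays with astrocytes all lay higher were NDUFA3, NDUFA7, NDUFA11, NDUFA13, NDUFB7, NDUFB8, NDUFB10, NDUFB11, NDUFS7 and NDUFV1-DT. The other such members were UQCRQ, COX6B2, COX7B2, ATP5F1D and ATP5MC3.

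The catalytic and core subunits of complexes II to V described next did not pass the threshold with astrocytes. They are not all such subunits: SDHB of complex II and UQCRFS1 of complex III are not among the members. RefSeq holds 86 coding symbols that match the rule, and 77 members are coding. In complex II, SDHA had 8.80, 8.74 and 8.68 in estradiol alone and 8.72, 7.46 and 8.84 with astrocytes. The membrane anchors SDHC and SDHD had log2 changes of -0.58 ± 0.41 and -0.59 ± 0.37 (SE). Their other probe sets, not used here, had -0.12 and -2.21. In complex III, UQCRC1, a core protein, had 6.95, 6.90 and 7.03 against 7.25, 6.33 and 7.54, 2 arrays above and 1 below all of estradiol alone. In complex IV, COX4I1 and COX5A, subunits bound to the catalytic core, had -0.27 ± 0.23 and -0.39 ± 0.30. In ATP synthase the alpha subunit ATP5F1A and the catalytic beta subunit ATP5F1B had -0.76 ± 0.46 and -0.84 ± 0.45. ATP5F1B gave 10.42, 9.94 and 10.33 alone and 10.19, 8.11 and 9.88 with astrocytes, which overlap. Replicate 2 of estradiol with astrocytes carried most of these negative values. Without it the log2 changes were 0.04 for SDHA, -0.03 for SDHC, -0.14 for SDHD, 0.44 for UQCRC1, -0.06 for COX4I1, 0.02 for COX5A, -0.06 for ATP5F1A and -0.20 for ATP5F1B. With all arrays, the limma adjusted p of these 8 genes ran from 0.160 (ATP5F1B) to 0.820 (UQCRC1). The medians by complex were 0.04 for I, -0.58 for II, 0.02 for III, -0.19 for IV and -0.41 for V.

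**Figure D4:**
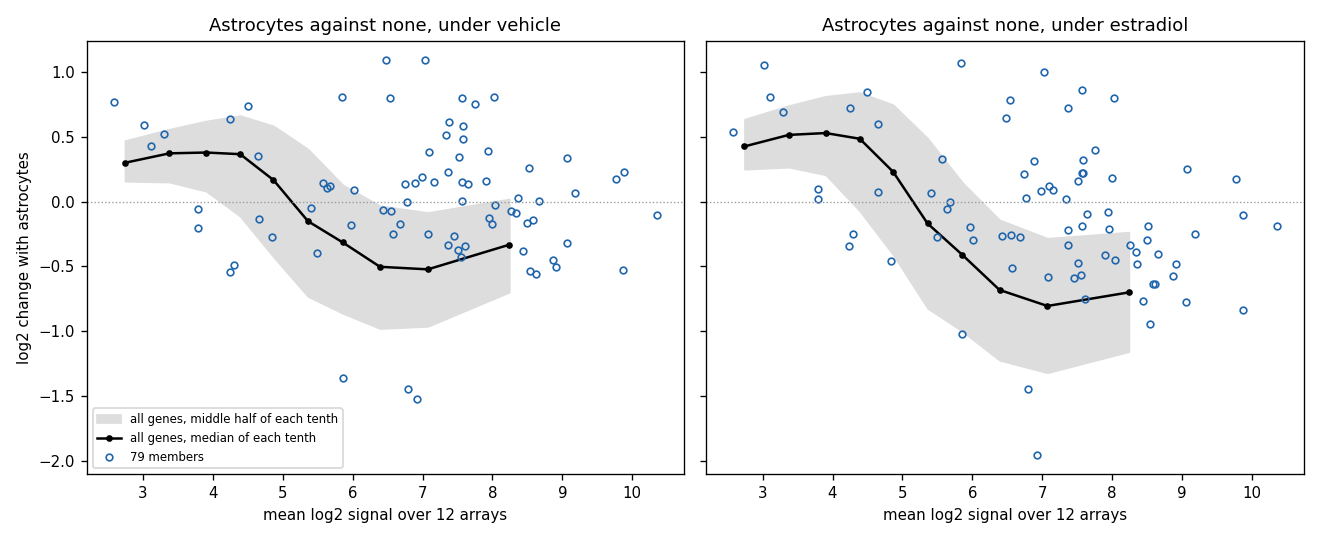
The log2 change with astrocytes against the mean log2 signal over 12 arrays, under vehicle (left) and estradiol (right), for the 79 members (circles) and all genes in 10 bins of equal size (line, median; band, quartiles). In the brightest bin, with 34 members, the median of all genes is -0.33 and -0.70; signals of different probe sets are used only to sort genes.

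Complex IV has subunits with a second gene used in particular tissues, and 6 such genes were measured: COX4I2 (lung), COX6A2 and COX7A1 (heart and muscle), and COX6B2, COX7B2 and COX8C (testis). All 6 had a positive log2 change with astrocytes, with a median of 0.69 under vehicle and 0.82 under estradiol, and COX6B2 under estradiol alone of them passed. Of the genes at or below the median signal, where 5 of the 6 lie, the median was 0.33 and 0.46. COX6A2 had 4.96, 5.50 and 5.53 in estradiol alone and 5.79, 7.33 and 6.09 with astrocytes (1.07 ± 0.40, SE; limma adjusted p = 0.0749). COX7A1 had 3.85, 4.22 and 3.68 against 4.45, 4.85 and 4.60. In all 6, replicate 2 was the highest array of estradiol with astrocytes, as it was of vehicle with astrocytes. Once array SD entered the fit as a covariate, the change of COX4I2 was 0.10 under vehicle and -0.01 under estradiol, and that of COX8C -0.14 and 0.06. The partner genes of most tissues had these log2 changes: COX4I1 -0.06 and -0.27, COX6A1 -0.11 and -0.19, COX6B1 0.26 and -0.19, COX7A2 -0.07 and -0.26, COX7B -1.36 and -1.02, and COX8A 0.07 and -0.25, under vehicle and estradiol. With array SD as a covariate the change of COX7A2 was 1.15 and 1.36.

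**Figure D5:**
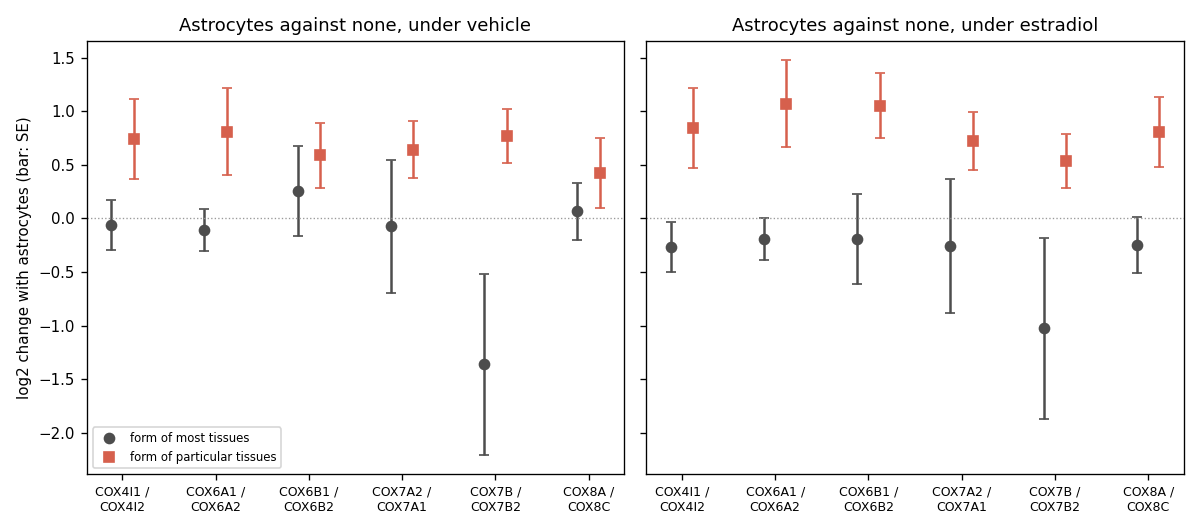
The log2 change with astrocytes, with its SE, for 6 pairs of complex IV genes: the form of most tissues (circles) and the form of particular tissues (squares), under vehicle (left) and estradiol (right). All squares lie above 0, though with the array SD as a covariate COX8C under vehicle was -0.14 and COX4I2 under estradiol -0.01; COX6B2 under estradiol passed the limma threshold.

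The genes that build and feed the complexes were read from 7 lists with measured members. Under vehicle no gene of any list passed. Under estradiol 5.03% of all genes rose and 8.15% fell, against which the list counts are to be read. In that comparison 1 of 16 complex I assembly factors rose, ECSIT, by 0.81 ± 0.22 on the log2 scale (SE; limma adjusted p = 0.0417). In that list 13 of 16 were negative and the median was -0.70; of the brighter genes, 6732 of 8979 were negative. Of 12 assembly factors of complexes II, III and V, TTC19 of complex III fell by 1.56 ± 0.38 (limma adjusted p = 0.0368). Of 20 assembly factors of complex IV, the copper chaperone SCO2 rose by 1.33 ± 0.27, and COX15, which makes heme A, and COX11, another copper chaperone, fell by 1.15 and 1.67 (limma adjusted p = 0.0334, 0.0476 and 0.0494). SCO2 gave 4.67, 4.99 and 4.75 in estradiol alone and 5.93, 6.37 and 6.11 with astrocytes, and COX11 5.52, 5.15 and 5.60 against 4.80, 3.44 and 3.01. Neither overlaps. Of 19 regulators, PERM1 rose (1.12), and POLG2, TWNK, both of mitochondrial DNA replication, and the oncogene MYC fell (-1.51, -1.24 and -0.82). Of 24 import and cristae genes APOOL and TOMM70 fell (-2.62 and -1.47). None of 16 tricarboxylic acid cycle genes and none of 19 other chain components passed. Their medians were -0.74 and -0.59, beside -0.19 for the subunits and -0.58 for brighter genes. The 15 mitochondrially encoded genes were not measured under a single symbol here.

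Markers of other cell types were dim on average. The astrocytes were mouse cells, and the markers were read as human genes. Dim values therefore do not measure how much astrocyte RNA remained after sorting. The mean log2 signal of 14 astrocyte markers was 4.82 to 5.12 in vehicle alone, 4.76 to 4.99 in estradiol alone, 5.13 to 5.27 in vehicle with astrocytes and 5.14 to 5.43 in estradiol with astrocytes. With astrocytes 10 of 14 had positive changes in each treatment, where 76.8% (vehicle) and 79.7% (estradiol) of all genes at or below the median signal did. Under estradiol NDRG2 rose (1.14) and SLC1A3 fell (-0.97), while GFAP gave 4.72, 5.17 and 4.91 against 5.43, 6.70 and 5.78, and AQP4 2.92, 3.10 and 3.05 against 2.81, 3.93 and 3.25. The mean of 12 microglia markers went from 3.76 to 3.90 in estradiol alone to 4.03 to 5.19 with astrocytes, and that of 11 neuron markers from 3.81 to 4.07 to 4.19 to 4.94. Their part in the subunit results was not tested. In such bulk RNA fewer cells of a kind and less RNA in each cannot be told apart.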

How the data were processed

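Gene expression was measured on 12 single-colour Affymetrix arrays of total RNA from sorted 231BR cells. As deposited, the array values are log2 signals. RMA and Partek appear in the submitters' processing notes, and their roles, order and versions are not given in the sources used here. RMA usually evens out the spread of arrays, and the deposited columns differ in SD. Of 33297 probe sets, 21236 are named in the platform's gene table, 19181 with 1 symbol and 2055 with several, and 12061 are unnamed. Probe sets with 1 symbol were used, with symbols updated through RefSeq (GRCh38.p14). Where a gene had several, the one brightest on average was taken, which affected 7 members. No values were filtered out.

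The fit used limma 3.58.1 (R 4.3.3), with all 12 arrays, a mean for each group, and eBayes on the contrasts. Tests were two-sided, and p-values of each of 5 contrasts were adjusted by Benjamini and Hochberg over 17958 genes, with a threshold of 0.05. The script was tested on simulated data. SE is from the fit, in log2 units. Lists were described by counts and medians, with no test of their own.

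The members and lists were chosen with earlier results of these data known. Members were named where they passed the threshold or, where fewer than 5 passed, had the 5 smallest p, together with 20 fixed core subunits and isoforms, the members nearest the threshold, and up to 4 genes of a pathway list with the smallest p. Members named for the extreme of a range or because their groups did not overlap were chosen after their values were seen. Alternatives were a replicate block, quantile normalization, centring, the array SD as a covariate, other probe set and eBayes rules, array weights, fewer arrays and other thresholds. Between the 2 co-culture groups, arrays with the same replicate number had correlations of their deviations over genes of 0.789, 0.756 and 0.214 (numbers 1 to 3). Unlike numbers correlated too, at 0.396 for number 1 of vehicle and 3 of estradiol with astrocytes. Without astrocytes, number 3 of vehicle and 2 of estradiol gave 0.760. These values do not settle a pairing, and what such a number marks is not given in the labels.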

Additional observations from a re-analysis of the deposited data

How the results depend on the processing

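Both estradiol comparisons and the interaction gave no member past the threshold under every alternative run, and the counts moved only for astrocytes. With the replicate number as a block, 6 members passed under vehicle and 11 under estradiol, and the block changed no other count. Any pairing of the co-culture groups rests on the values alone, which do not settle it. Between the groups that the astrocyte comparisons contrast, same-number correlations were 0.582, -0.436 and 0.0647 under vehicle and 0.538, 0.485 and -0.0162 under estradiol. These do not settle a pairing either. With the array SD as a covariate 20 and 12 passed (6.49% and 2.61% of all genes), all higher, with medians of 0.48 and 0.55, so the median under estradiol turned. Quantile normalization gave a median of 0.31 under vehicle, and 6 members under estradiol (2.95%). Array weights, whose default fit did not converge and was replaced by the gene-by-gene one, gave 26 and 36 (59.4% and 66.8%). The arrays of the groups compared alone gave 4 and 0 (8.88% and 0%), every probe set on its own 1 under vehicle (0.214%), and a fit with neither replicate 2 array of the co-cultures 7 and 10 (5.59% and 9.19%). At an adjusted p under 0.1 there were 4 and 14 (7.29% and 39.8%), and under 0.01 there were 0 under estradiol (0.0223%). Leaving out 1 array in turn gave 0 to 14 under vehicle and 0 to 16 under estradiol. The share of all genes called in each of those fits is not set beside these counts. Of the members named by p or from the fixed list, COX7A2 turned and passed with the array SD (1.15 and 1.36). It also did so with array weights under estradiol (0.53). NDUFV1 did so under estradiol with array weights (0.72) and without both replicate 2 arrays (0.63). Members outside that selection turned and passed as well. With the array SD, examples are NDUFS4 under vehicle (from -0.25 to 1.08) and NDUFV2 under estradiol (from -0.19 to 1.21). The causes of these moves were not tested. Medians near 0 lie within the spread of 3 arrays.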

Other observations

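The 3 subunits that rose with astrocytes under estradiol, NDUFS7, NDUFB7 and COX6B2, are all on chromosome 19, which was looked at after these values were seen and has no test. Its 11 members are ATP5F1D, COX6B1, COX6B2, COX7A1, NDUFA3, NDUFA7, NDUFA11, NDUFA13, NDUFB7, NDUFS7 and UQCR11. With astrocytes 11 of them had positive log2 changes under vehicle (median 0.64) and 10 under estradiol (median 0.72). Of the 68 members on other chromosomes, 31 were positive under vehicle (median -0.06) and 25 under estradiol (median -0.23). The 1256 genes of chromosome 19 on the arrays were positive in 68.9% and 65.2% (medians 0.27 and 0.30), and the 16677 genes of other chromosomes in 52.0% and 51.4% (both medians 0.04).

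Shorter member genes had the higher changes. The Spearman correlation of the log2 change with gene length over the 79 members was -0.386 under vehicle and -0.376 under estradiol, and over 17933 genes of the array -0.336 and -0.317. The median length was 9242 bases in the members and 24914 bases in all these genes. With the mean signal it was -0.161 and -0.38 in the members and -0.483 and -0.58 in all genes. These are correlations across genes, which share the same 12 arrays and are not independent replicates.

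Probe sets of 1 gene disagreed most for SDHD, a membrane anchor of complex II. The probe set used had log2 changes with astrocytes of -0.26 under vehicle and -0.59 under estradiol, and the other -2.29 ± 0.82 and -2.21 ± 0.82 (SE; limma adjusted p = 0.121 and 0.0730 over all probe sets). For SDHC, the other anchor, the probe set used had -0.45 and -0.58 and the other 0.28 and -0.12.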
